A study of Rattus norvegicus with 6 samples.

Results

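A set of 7 genes of prostaglandin synthesis, signalling and breakdown were followed in rat pluripotent cells: Ptgs1, Ptgs2, Ptges, Ptgds, Ptgis, Ptger4 and Hpgd. They are 7 of 14217 genes with a probe set of their own on the array. Every probe set whose gene symbol was exactly 1 of these names was taken, which gave 10 of 31042 probe sets: 2 each for Ptgs1, Ptges and Hpgd and 1 for each of the other 4 genes. The genes were chosen by the difference between ES and fPS intensities on these same arrays, which was known from earlier work on the data, so the values of these 10 probe sets are given as a description and without a test. Total RNA from 3 samples of embryonic stem (ES) cells and 3 samples of flat pluripotent stem (fPS) cells had been hybridised to Affymetrix arrays. Both groups came from Sprague-Dawley rats and share 1 set of culture notes, which name 10 ng/ml human LIF, 3 μM of the GSK3 inhibitor CHIR99021 and 0.5 μM of the MEK inhibitor PD0325901 in an N2 and B27 medium, and also upkeep on mitomycin C-treated mouse embryonic fibroblasts in DMEM with 15% FBS. The labels give no passage number, clone or derivation for either group, and the description field of the fPS samples calls them embryonic stem cells too. Nothing states that the 3 samples of a group were separate cultures, so every spread and p-value here measures the variation between these samples, which may be technical.

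Prostaglandins are short-lived lipid signals. Phospholipases A2 release arachidonic acid from membranes, and the cyclooxygenases Ptgs1 (COX-1, in most cells a steady housekeeping form) and Ptgs2 (COX-2, in most cells an inducible form) turn it into the unstable intermediate PGH2. Terminal synthases then make a single product each: Ptges makes prostaglandin E2, Ptgds prostaglandin D2 and Ptgis prostacyclin. Ptger4 is a cell surface receptor for prostaglandin E2, and Hpgd is the dehydrogenase that starts its breakdown.

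The median intensity ran from 36.2 to 45.3 over the 6 arrays. Pluripotency markers were bright in both groups, but not all were alike in them. Sox2 had 3770 ± 738 (SD, n = 3) in ES and 1992 ± 787 in fPS cells, and Epcam 3511 ± 542 and 3548 ± 101. Without overlap, Sox2 and Lin28a were lower and Klf5 higher in fPS cells, beside 20.0% of all probe sets that did not overlap. Of 14 such markers listed, 9 were measured, and Pou5f1 and Nanog were not analysed here. Values were compared as log2(intensity + 16), a scale on which the difference of a probe set near or under 16 is understated. In limma's fit over all probe sets, 215 (0.693%) passed a Benjamini-Hochberg adjusted p of 0.05, 124 higher and 91 lower in fPS cells. After centring each array on its median there were 376, 152 higher and 224 lower. Leaving out 1 array gave 0 (ES replicate 1), 27 (ES replicate 2), 1 (ES replicate 3), 162 (fPS replicate 1), 0 (fPS replicate 2) and 4 (fPS replicate 3), with 3824 and 3215 probe sets at an unadjusted limma p under 0.05 where the count was 0.

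Within the 7 genes, the inducible cyclooxygenase and the terminal synthase of prostaglandin E2 were higher on every fPS array than on any ES array, while the brighter probe set of the other cyclooxygenase was lower. Ptges had the largest difference by its brighter probe set, 8.64 times higher in mean intensity, against 3.33 times by its other probe set. The first was the brighter by group mean only in fPS cells, with ES means of 41.3 and 62.8 for the 2. Ptgs2 had means of 11.7 in ES and 65.1 in fPS cells, and its ES values were so dim that no fold is given. The synthases of prostaglandin D2 and prostacyclin, the receptor Ptger4 and the dehydrogenase Hpgd lay low or overlapped between the groups. The groups did not overlap in 5 of the 10 probe sets, beside 20.0% of all probe sets. Of these 5, 4 were higher in fPS cells, beside 10.1% of all probe sets, and 1 was lower, beside 9.88%. Nothing is read from these counts, since the genes were selected on this comparison.

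**Figure D1:**
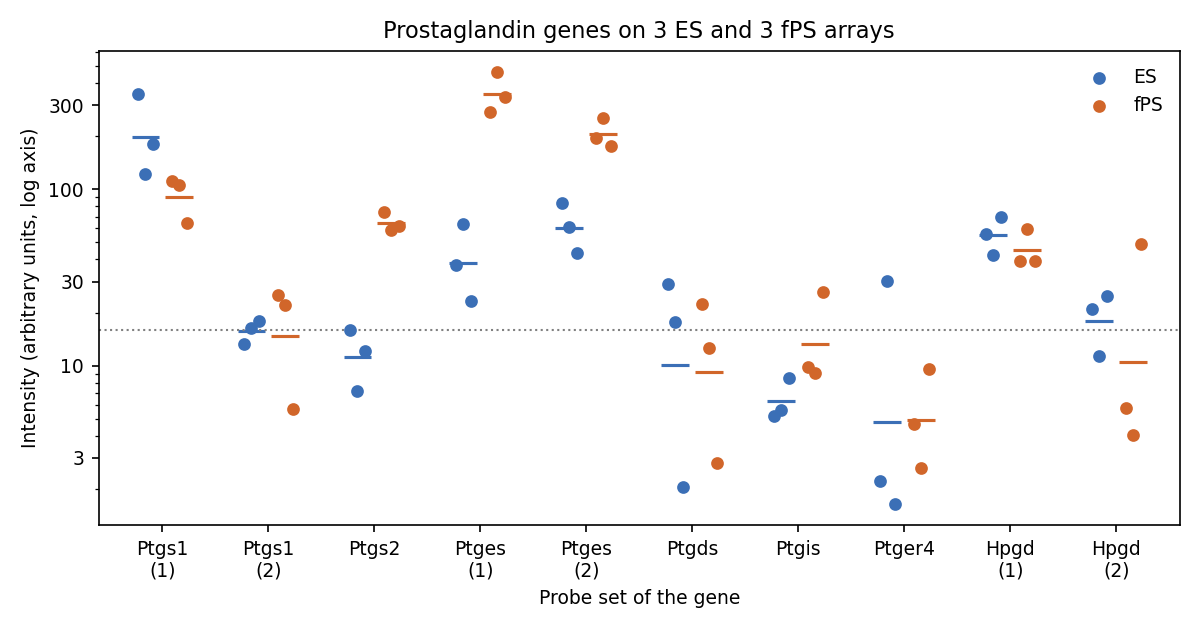
Intensity (log axis, arbitrary units) of the 10 probe sets on the 3 ES (blue) and 3 fPS (orange) arrays, with 1 point per array, a bar at the geometric mean of each group and a dotted line at 16, the value added before taking log2; where a gene has 2 probe sets they are numbered in the order in which they are described. For Ptgs2 and both probe sets of Ptges all fPS points lie above all ES points, and for the first probe set of Ptgs1 all lie below.

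Ptges encodes microsomal prostaglandin E synthase 1, the inducible enzyme of prostaglandin E2 synthesis. Its brighter probe set, 1368014_at, read 37.3, 63.4 and 23.2 on ES replicates 1, 2 and 3 and 276, 462 and 332 on fPS replicates 1, 2 and 3. The lowest fPS array was thus 4.35 times the highest ES array. The group means were 41.3 ± 20.4 (SD, n = 3) and 356.7 ± 95.1, and the log2 difference was 2.73 (SE 0.307), a 6.64-fold difference on the log2(intensity + 16) scale.

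The other Ptges probe set, 1368015_at, separated the groups as well, with a smaller difference. It read 83.8, 61.0 and 43.6 in ES cells and 195, 256 and 176 in fPS cells, and its lowest fPS value was 2.10 times its highest ES value. Its log2 difference was 1.53 (SE 0.257), with means of 62.8 ± 20.1 and 208.9 ± 41.6 (SD, n = 3). Over the 6 arrays the log2 values of the 2 probe sets had a Pearson r of 0.961, a value that the gap between the groups alone would raise. The first probe set was highest on ES replicate 2 and the other on ES replicate 1 among the ES arrays, whereas both were highest on fPS replicate 2 among the fPS arrays.

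Ptgs2 was dim in ES cells and moderately low in fPS cells. Probe set 1368527_at read 15.8, 7.22 and 12.0 in ES cells and 74.4, 58.6 and 62.3 in fPS cells. The 3 fPS values lay close together, all above the ES values. The means were 11.7 ± 4.32 and 65.1 ± 8.29 (SD, n = 3), and the log2 difference was 1.56 (SE 0.214). All 3 ES values are below 16, so the size of this difference rests on the value added: it was 2.43 with 1 added and 0.77 with 64 added.

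Promoters of the cyclooxygenases and of Ptges are shown because these are the members, beside the dim Ptgis, whose groups did not overlap. Each is the stretch of 250 bases just before the annotated gene start in RefSeq's rat assembly GRCr8, written 5′ to 3′ on the gene's own strand, with every motif match in capitals. The Ptges stretch is chr3:34586988-34587237 (minus strand), that of Ptgs2 is chr13:64713813-64714062 (plus strand) and that of Ptgs1 is chr3:39981169-39981418 (plus strand).
Ptges: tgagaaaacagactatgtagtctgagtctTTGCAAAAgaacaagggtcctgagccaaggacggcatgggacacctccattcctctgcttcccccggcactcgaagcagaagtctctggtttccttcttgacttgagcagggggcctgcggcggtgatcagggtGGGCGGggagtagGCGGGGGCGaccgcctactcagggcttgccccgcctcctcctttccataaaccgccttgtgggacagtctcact
Ptgs2: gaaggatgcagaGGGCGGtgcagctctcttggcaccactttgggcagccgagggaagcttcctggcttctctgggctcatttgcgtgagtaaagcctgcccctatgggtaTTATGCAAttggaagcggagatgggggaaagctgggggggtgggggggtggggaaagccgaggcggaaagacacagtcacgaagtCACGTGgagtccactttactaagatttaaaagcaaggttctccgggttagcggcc
Ptgs1: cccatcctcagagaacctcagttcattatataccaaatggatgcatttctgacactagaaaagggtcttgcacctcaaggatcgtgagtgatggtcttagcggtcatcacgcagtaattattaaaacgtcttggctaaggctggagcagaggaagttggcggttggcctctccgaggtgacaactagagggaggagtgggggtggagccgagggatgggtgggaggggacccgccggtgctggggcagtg
In all, 8 motifs were searched on both strands. They were the EGR motif GCGNGGGCG, the GC box GGGCGG, which can share bases with it, the TATA box TATAAA, the E-box CACGTG, the CRE core TGACG, the C/EBP motif TTGCNNAA, the AP-1 motif TGANTCA and the NF-kB motif. The Ptges stretch held 1 EGR match 74 to 66 bases before the start, 1 GC box 87 to 82 bases before it and 1 C/EBP match 221 to 214 bases before it. In the Ptgs2 stretch there were 1 E-box 55 to 50 bases, 1 C/EBP match 140 to 133 bases and 1 GC box 238 to 233 bases before the start. The Ptgs1 stretch held 0 matches of any of the 8.

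Among 33469 promoters of the same length the EGR motif was found in 4.3%, the E-box in 5.6%, the C/EBP motif in 9.2% and the GC box in 30.5%. The motifs with no match in Ptges, Ptgs2 or Ptgs1 were found in 12.9% (TATA box), 18.2% (CRE core), 6.3% (AP-1) and 3.5% (NF-kB). A match says only that these letters stand in the window, and a missing match that they do not. Of the 7 genes, 6 had a promoter entry, and Ptgis is named only. Ptgds had 2 GC boxes that share bases, Hpgd 1 GC box and 1 CRE core, and Ptger4 0 matches.

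**Figure D2:**
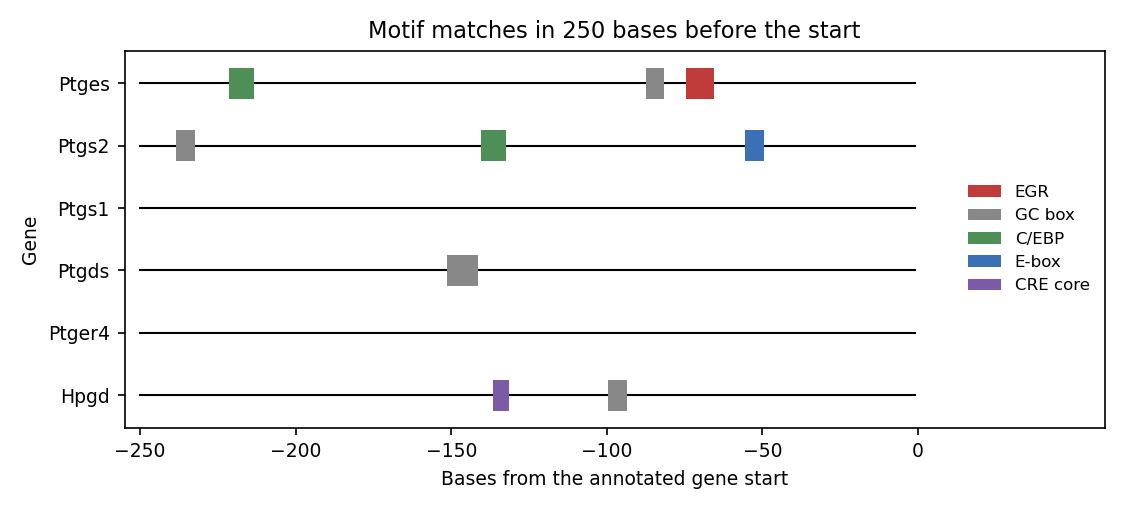
Motif matches (coloured boxes, to scale) in the 250 bases before the annotated start of 6 genes, with the distance from the start in bases on the horizontal axis. The EGR match appears in Ptges, the E-box in Ptgs2, and Ptgs1 and Ptger4 have none of the 8 motifs.

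Ptgs1, the other cyclooxygenase, ran the opposite way by its brighter probe set. Probe set 1368259_at read 349.5, 121.5 and 181.4 on ES replicates 1, 2 and 3 and 111, 106 and 64.1 on fPS replicates 1, 2 and 3. The groups were separate by a small margin, the lowest ES array being 1.09 times the highest fPS array, and ES replicate 1 stood well above the other ES arrays. The means were 217.4 ± 118.2 and 93.6 ± 25.7 (SD, n = 3), and the log2 difference was -1.0 (SE 0.365). Without ES replicate 1 it was -0.62. The other probe set of Ptgs1, 1381806_at, was dim, with 13.3, 16.3 and 17.9 on the ES and 25.0, 22.2 and 5.69 on the fPS arrays. It overlapped between the groups, and its log2 difference was 0.027 (SE 0.274), so the lower level rests on 1 of the 2 probe sets.

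The remaining terminal synthases were dim. For Ptgds, prostaglandin D synthase of the lipocalin type, probe set 1367851_at read 28.9, 17.7 and 2.04 on the ES and 22.4, 12.7 and 2.79 on the fPS arrays. The groups overlapped almost wholly, with the lowest value of each on its replicate 3 and a log2 difference of -0.13 (SE 0.381). For Ptgis, prostacyclin synthase, probe set 1370012_at read 5.20, 5.60 and 8.48 on the ES and 9.84, 9.02 and 26.2 on the fPS arrays. The fPS arrays were all higher, but the lowest was only 1.06 times the highest ES array and 5 of the 6 values were below 10. The log2 difference of Ptgis was 0.43 (SE 0.253), and 0.98 with 1 added in place of 16.

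Receptor and breakdown genes overlapped between the groups. Ptger4, the prostaglandin E2 receptor that signals through cyclic AMP, read 2.21, 30.1 and 1.64 in ES cells and 4.66, 2.64 and 9.52 in fPS cells by probe set 1368941_at. ES replicate 2 was the highest of the 6 by far, and the log2 difference was -0.20 (SE 0.371). Without ES replicate 2 that difference was 0.26. For Hpgd, probe set 1376191_at read 55.5, 42.3 and 70.1 on the ES and 39.4, 59.6 and 39.3 on the fPS arrays, with a log2 difference of -0.21 (SE 0.239). The other Hpgd probe set, 1387631_at, read 20.8, 11.3 and 24.7 on the ES and 5.73, 4.02 and 49.2 on the fPS arrays, so fPS replicate 3 was the highest and the other fPS arrays were the lowest. Its log2 difference was -0.18 (SE 0.433), and the 2 Hpgd probe sets did not vary together over the 6 arrays (Pearson's r of -0.064).

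**Figure D3:**
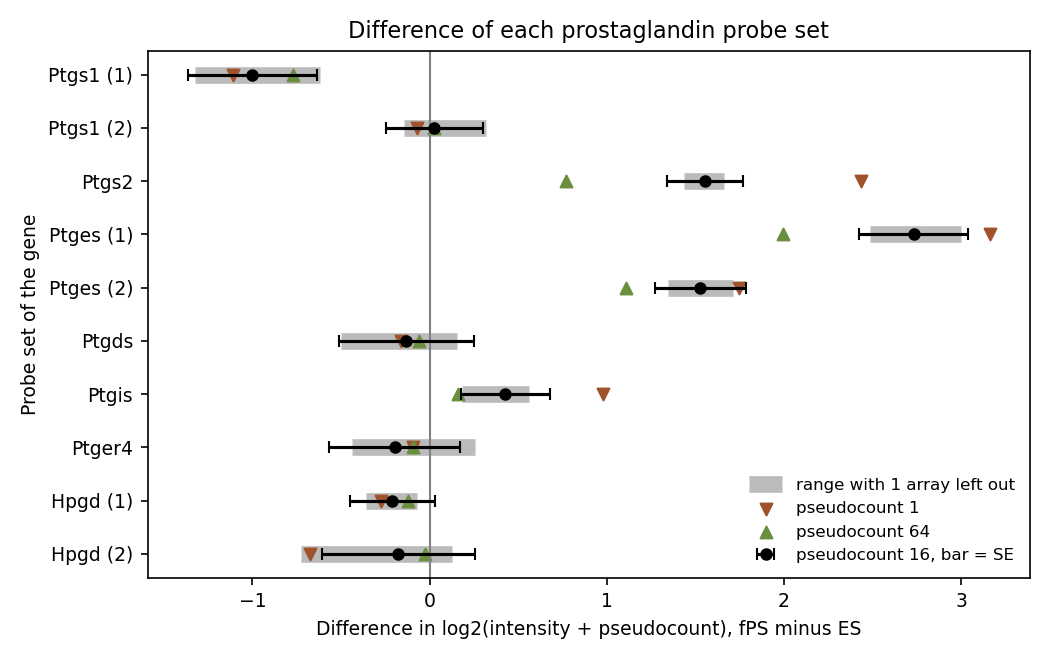
Difference in log2(intensity + pseudocount) between fPS and ES cells for the 10 probe sets, with the SE of the fit as a bar, the range over fits that leave out 1 array in grey, and triangles for pseudocounts of 1 and 64. Ptgs2 and both Ptges probe sets lie right of 0 in every setting drawn, at 0.77 or more, and the first Ptgs1 probe set lies left of 0. The groups of these probe sets do not overlap, so no setting drawn could change their sign.

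To place these genes in their pathway, 40 further genes that could be measured of 46 listed were tested in the same fit. By limma, with p-values adjusted across the whole array, 0 of 40 were higher and 0 lower in fPS cells, beside 0.858% of all 14217 genes, and 8 of 40 had an unadjusted p under 0.05, beside 17.5% of all genes. The median log2 difference of the list was 0.0067, and that of all genes was -4.6e-05. Both counts are near those shares, so they show nothing particular to the pathway, and Pla2g15 passed in 3 of 13 alternatives. A change that misses the threshold is not shown to be absent with 3 arrays a group.

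Upstream, 0 of 15 phospholipases A2 passed (median 0.0073). The largest difference was that of Pla2g15, a lysosomal phospholipase, with 333, 450 and 601 on the ES and 972, 1350 and 977 on the fPS arrays. All 3 fPS arrays of Pla2g15 were above all ES arrays, with a log2 difference of 1.25 (SE 0.267, limma adjusted p = 0.0755; 0.0326 to 0.298 over the other settings tried). Chosen after its values were seen, Pla2g4a, the cytosolic phospholipase that feeds the cyclooxygenases in many cells, was dim, at 16.8 ± 5.07 (SD, n = 3) in ES and 16.8 ± 3.66 in fPS cells. Pla2g4b, also chosen after its values were seen, had 31.8 ± 24.5 in ES and 79.3 ± 23.2 in fPS cells, without overlap. Its log2 difference was 1.13 (SE 0.413, limma adjusted p = 0.239), which did not pass.

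Of 7 other synthases 0 passed (median 0.28). Cbr1, a carbonyl reductase that can turn prostaglandin E2 into F2α, had the largest difference in this class, with 2829, 2618 and 2377 on the ES and 1849, 1440 and 643 on the fPS arrays. Its log2 difference was -1.11 (SE 0.362, limma adjusted p = 0.192), without overlap between the groups. The remaining prostaglandin E synthases, chosen here after their values were seen, did not share the pattern of Ptges. Ptges2, a membrane-associated form, had a log2 difference of -0.17 (SE 0.214), and Ptges3, the cytosolic form that is also the HSP90 cochaperone p23, of -0.24 (SE 0.207).

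Of 6 receptors measured 0 passed (median 0.082), and Ptger3, an inhibitory prostaglandin E2 receptor, had the largest log2 difference, 0.29 (SE 0.327, limma adjusted p = 0.746), which was -0.033 without fPS replicate 3. Chosen after its values were seen, Ptger2, the other receptor that raises cyclic AMP, read between 3.51 and 6.76 on all 6 arrays. Among 6 genes of transport and breakdown 0 passed (median -0.30), and the largest difference was that of Abcc4, an exporter of prostaglandins and cyclic nucleotides, at -0.93 (SE 0.338, limma adjusted p = 0.232). Of 6 genes of the lipoxygenase route, which draws on the same arachidonic acid to make leukotrienes, 0 passed (median 0.19), and Alox5, 5-lipoxygenase, had the largest, at 0.55 (SE 0.27, limma adjusted p = 0.377).

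**Figure D4:**
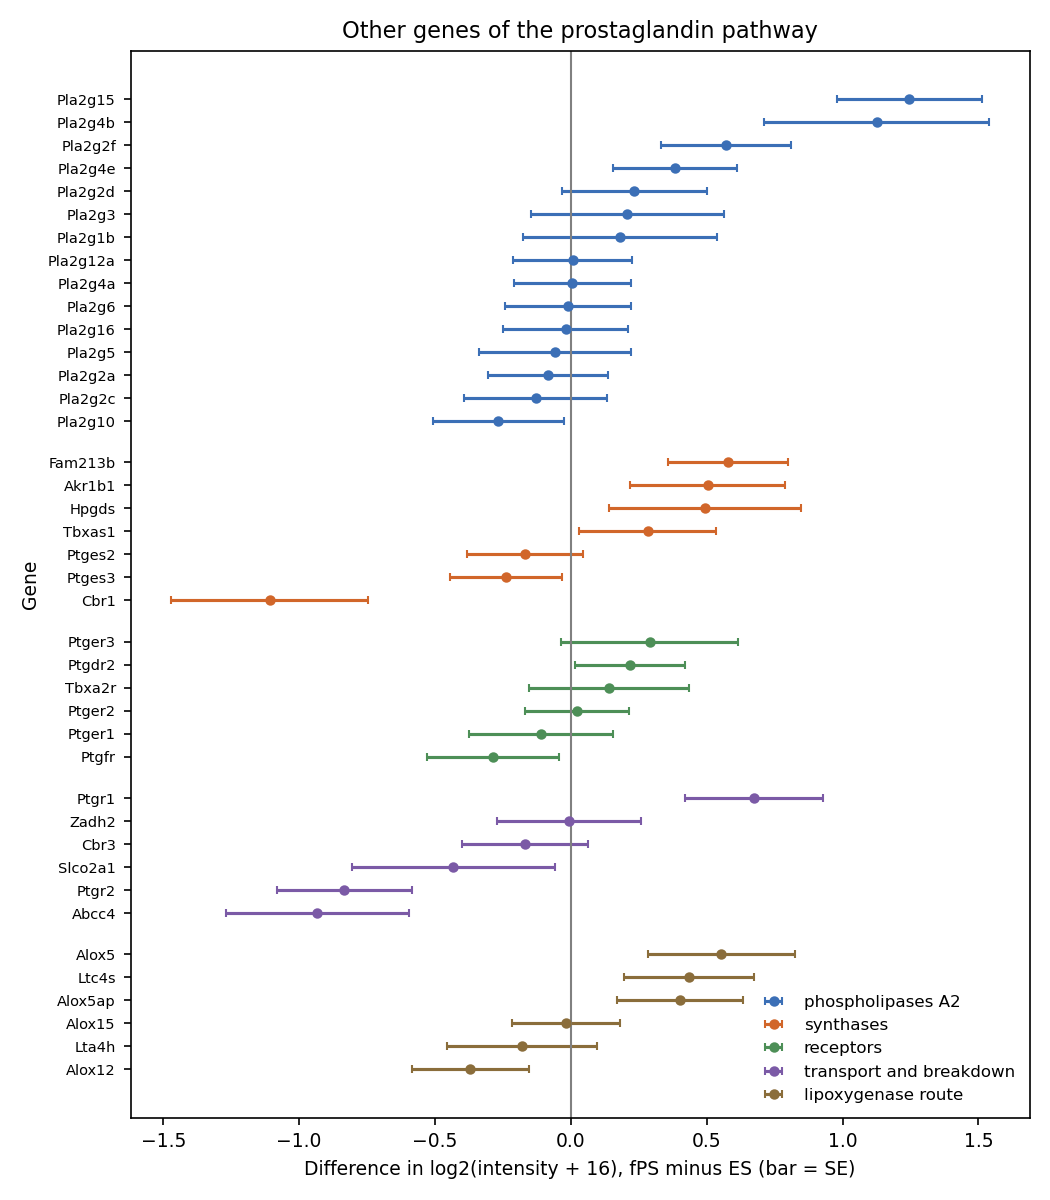
Difference in log2(intensity + 16) between fPS and ES cells, with its SE, for 40 other genes of the pathway in 5 classes, each gene by its brightest probe set. Values run from -1.11 (Cbr1) to 1.25 (Pla2g15), and 0 of the 40 genes passed the limma test.

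A list of 11 transcription factors that are known to act on the Ptgs2 or Ptges promoter was read in the same way. By limma, 3 of 11 were higher in fPS cells and 0 lower, beside 0.570% of all genes that were higher, and the median log2 difference was 0.25. The 3 were Fos and Jun, the subunits of AP-1, and Egr1, an immediate-early zinc finger factor. That they rose was known when the list was made, so the count is no independent evidence. Egr1 read 38.3, 53.0 and 27.5 on the ES and 248, 526.5 and 334 on the fPS arrays, a log2 difference of 2.75 (SE 0.306, limma adjusted p = 0.0284; 0.00148 to 0.170 over the other settings tried). Fos and Jun had log2 differences of 4.74 (SE 0.686) and 3.53 (SE 0.311). However, the other Fos probe set had -0.27 and the other 2 of Jun 1.61 and 0.99, none of which passed. The Jun probe set taken was the brightest only through fPS cells. Its ES mean was 30.5, against 42.9 and 39.6 for the other 2, so its choice favoured a difference. The count of 3 became 0 when ES replicate 1 or either of fPS replicates 2 and 3 was left out, 1 without ES replicate 3, and 2 without ES replicate 2 or fPS replicate 1. Where it was 0, 5, 4 and 4 of the 11 had an unadjusted limma p under 0.05, beside 3824, 3215 and 4097 of 31042 probe sets. The NF-kB subunits Nfkb1 and Rela, chosen after their values were seen, had log2 differences of -0.74 (SE 0.292) and 0.096 (SE 0.25) that did not pass.

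Across the 6 arrays the genes most like Ptges were Adamtsl4 (r = 0.997), Gpr19 (r = 0.996) and Egr1 (r = 0.995), by Pearson's r of log2 values of its brighter probe set among 7229 other genes with a group mean of at least 100. These are descriptions over 6 points in 2 separate groups, and 284 of the 7229 genes had an r over 0.9. The larger of the 2 group means had to reach 100, which Ptges, Adamtsl4 and Egr1 did only in fPS cells. Adamtsl4, a matrix protein related to ADAMTS proteases, went from 79.3 ± 30.2 to 538.9 ± 185.3 (SD, n = 3), and Gpr19, an orphan receptor, from 354.6 ± 27.2 to 624.2 ± 56.5. The brighter Ptges probe set put the 6 arrays in the same order as Egr1, with 6 of 6 at the same rank. For the other Ptges probe set 2 of 6 arrays had the same rank. Egr1 was named here for its high r with the brighter probe set, so their like order is no separate evidence. How many other genes share that order was not counted, and a link between Egr1 and Ptges was not tested. The genes most like Ptgs1 were Smpdl3b (r = 0.995), Isg15 (r = 0.992) and Ubxn6 (r = 0.986), with 106 of the 7229 over 0.9. Isg15, an interferon-induced ubiquitin-like protein, had 523.3 ± 428.0 in ES and 147.9 ± 59.4 in fPS cells.

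**Figure D5:**
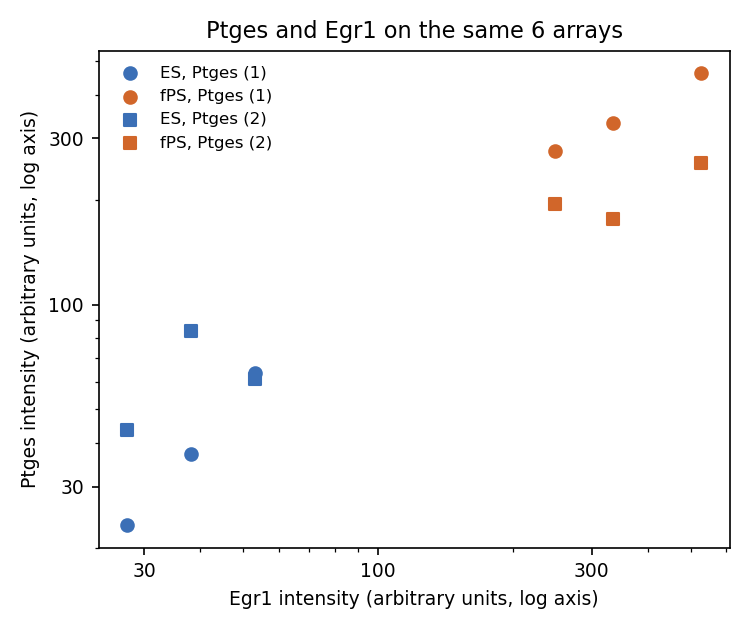
Intensity of both Ptges probe sets (circles and squares) against that of Egr1 on the same 6 arrays, on log axes in arbitrary units, with ES arrays in blue and fPS arrays in orange. The groups form separate clusters, and the circles keep the order of Egr1 within each cluster, while the squares do not.

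Cyclooxygenases and prostaglandin synthases are also made by fibroblasts, which the culture notes name as feeder cells, and by macrophages and other cells. Marker lists were therefore read beside them. The feeders were mouse cells, while the markers were read by rat probe sets. How far these probe sets read mouse RNA, and whether feeder RNA was in the samples, is not known. In bulk RNA, fewer cells of a type and less RNA per cell cannot be told apart. Over all genes 0.858% passed by limma and 17.5% had an unadjusted p under 0.05. Of 20 fibroblast markers, 0 passed and 4 had an unadjusted limma p under 0.05, a share near that of all genes. A positive log2 difference was seen in 15 of 20 (median 0.35). This share depended on ES replicate 3. Without that array 0 passed, but 10 of 20 had an unadjusted limma p under 0.05 (median 0.72), beside 4563 of 31042 probe sets. Their summed intensity was 2546 to 4005 on the ES and 3399 to 4444 on the fPS arrays, so the groups overlapped, with ES replicate 3 above 2 of the 3 fPS arrays. On several arrays this sum was mostly Timp1, which gave 2106 of 2627 on ES replicate 1 but 590 of 4005 on ES replicate 3. The mean log2 value of the list, which leans less on 1 bright gene, overlapped too (5.48 to 6.90 and 6.29 to 6.98). Among the ES arrays, both Ptges probe sets were lowest on replicate 3, whereas Ptgs2 and the brighter Ptgs1 probe set were lowest on replicate 2. How these orders relate to the fibroblast markers was not tested. The largest difference among the fibroblast markers was that of Vim, at 1.58 (SE 1.06), which overlapped between the groups. Of the 20, only Mmp2 and Postn did not overlap, both higher in fPS cells, beside 20.0% of all probe sets.

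Of 7 macrophage markers, 0 passed and 4 had an unadjusted limma p under 0.05, beside 17.5% of all genes (median 0.61). They were dim, with a summed intensity of 156 to 187 on the ES and 210 to 354 on the fPS arrays, without overlap, while their mean log2 value overlapped, at 5.12 to 5.33 and 5.32 to 5.81. Cd68 had the largest difference, 0.94 (SE 0.261). Of this list, Cd68, Aif1, Csf1r and Cd14 were higher in fPS cells without overlap, beside 20.0% of all probe sets that did not overlap. The pan-leukocyte gene Ptprc was near the bottom of the scale in both groups, at 6.63 ± 4.42 and 5.99 ± 6.05 (SD, n = 3). Of 10 extraembryonic endoderm markers, 0 passed and 6 had an unadjusted limma p under 0.05, beside the same 17.5% (median 0.86). Sparc had the largest difference, 1.46 (SE 0.515), but overlapped between the groups. In this list only Sox17, Gata4 and Foxa2 did not overlap, each higher in fPS cells, beside 20.0% of all probe sets. The sums of that list overlapped, at 1431 to 2953 and 2499 to 3530, but its mean log2 value did not, at 6.14 to 6.68 on the ES and 7.004 to 7.21 on the fPS arrays. Only by the mean log2 value did this list separate the groups, and its relation to Ptges and Ptgs2 was not tested.

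Of 8 trophoblast markers, 0 passed and 1, Cdx2, had an unadjusted limma p under 0.05, with a log2 difference of -1.86 (SE 0.372). The median of that list was -0.16, and its sums overlapped, at 3851 to 5009 on the ES and 3634 to 5514 on the fPS arrays. Of the 9 pluripotency markers, 0 passed and 2 had an unadjusted p under 0.05 (median -0.15), with sums of 17590 to 23280 and 14710 to 20100, and Lin28a had the largest difference, -1.30 (SE 0.308). No gene of these 5 lists read 0 on any array, and the files held no detection calls. What part other cell types had in the levels of Ptges, Ptgs2 and Ptgs1 was not tested.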

How the data were processed

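The deposited table held 1 linear intensity per probe set and array for 6 samples. Per the labels, 6 μg of total RNA was labelled with biotin by the Affymetrix protocol; how the authors summarised probes, corrected background and scaled arrays is not given in the sources used here. No further per-sample columns (0) stood beside them. Of 31099 probe sets, 57 controls were left out. The platform annotation gave 20826 probe sets 1 symbol, 436 several and 9780 none; only the first were named. The mean level was no ground for leaving out a probe set.

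Intensities were analysed as log2(intensity + 16) with limma 3.58.1 in R 4.3.3 (lmFit, eBayes), adjusted by Benjamini-Hochberg over 31042 probe sets, threshold 0.05. In lists, each gene was taken at its probe set of highest mean level. The fit was tested on simulated data. Figures used matplotlib 3.10.9.

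The members and lists were chosen with earlier results of these data known. Named by rule were all members, and of each list or class those that passed and the 1 with the largest absolute difference. The 3 genes most like each member with a group mean of at least 100 were named too. Others were named outside this rule, among them Sox2, Klf5, Epcam, Timp1, Mmp2, Postn, Ptprc, Aif1, Csf1r, Cd14, Sox17, Gata4 and Foxa2. Promoters came from RefSeq (GRCr8). Alternatives were quantile normalization, centred arrays, pseudocounts of 1 and 64, leaving out the dimmest 30%, a replicate block, trend and robust settings, the mean over probe sets, and leaving out each array. The number of arrays limits the precision.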

Additional observations from a re-analysis of the deposited data

How the results depend on the processing

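Probe sets past the limma threshold numbered 215, against 339 with quantile normalization, 376 with centred arrays, 41 with a pseudocount of 64, 759 without the dimmest 30%, 619 with trend and robust settings, 0 with a pseudocount of 1 (3943 at an unadjusted p under 0.05) and 0 to 162 with 1 array left out. Other pathway genes numbered 0, against 1 with quantile normalization, 1 without the dimmest 30% and 1 with trend and robust settings (Pla2g15 in each). The transcription factors numbered 3, against 0 with a pseudocount of 1 (4 unadjusted), 1 with a pseudocount of 64 and 0 to 2 with 1 array left out. Fibroblast markers numbered 0, against 1 without the dimmest 30%. Same-numbered arrays had correlations of their deviations of 0.15, 0.020 and 0.075, and the other pairs -0.14 to 0.054. Each array but ES replicate 2 correlated best with its own number. That array had 0.054 with fPS replicate 3. The main fit did not take the numbers as pairs, and whether same-numbered arrays belong together is not known. With the replicate block 107 probe sets and 3 transcription factors passed. Ptger3 ran from -0.033 without fPS replicate 3 to 0.60 without fPS replicate 2. The differences of Ptges, Ptgs2, Ptgis, the brighter Ptgs1 probe set and Hpgd 1376191_at kept their sign in all 11 alternatives run on them. Except for Hpgd 1376191_at, the groups of these probe sets do not overlap. Leaving out 1 array, another pseudocount or the replicate block could then not change the sign of their differences. With 1 array left out, those of Ptgs1 1381806_at (-0.14 to 0.32), Ptgds (-0.50 to 0.16), Ptger4 (-0.44 to 0.26) and Hpgd 1387631_at (-0.72 to 0.13) changed sign; the first was also -0.091 with quantile normalization, -0.033 with centred arrays and -0.071 with a pseudocount of 1. With a pseudocount of 64 the Ptges differences were 1.99 and 1.11. The cause of these shifts was not tested.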
